A study of Mus musculus with 12 samples.

Results

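Cish, Socs1, Socs2, Socs3, Pim1, Pim2, Pim3, Osm, Bcl6 and Tnfrsf13c are 10 genes grouped here as feedback inhibitors of cytokine signalling, PIM kinases and other genes placed downstream of the transcription factor STAT5. They were chosen by name, with earlier results of these data known. Their probe sets are those of the mouse expression array annotated to 1 of these genes alone. The array holds 21 such probe sets, out of 45101 in all, and the 10 genes stand among 18194 genes that have a probe set of their own. Of the 10 genes, 9 had a probe set bright enough to be tested, together with 12673 genes in all, and Bcl6 did not.

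The cells were I/11, mouse erythroid progenitors that were derived from p53-deficient fetal liver and kept expanding in serum-free medium with erythropoietin, stem cell factor and dexamethasone. All groups share the p53 deficiency, these factors, and a puromycin-resistant pLKO lentiviral vector. The vector carried the hairpin sh14 against Plcg1 (phospholipase C gamma 1), the hairpin sh133 against Plcg1, or a scrambled control (scr), and each of these is a stably infected line. RNA of each line was taken at 1, 6, 12 and 22 h and read on 1 array per line and time, which gives 4 arrays for sh14, 4 for sh133 and 4 for scr. The starting point of the hours is not given in the labels. Nothing in the labels says that a line was derived more than once, so a difference between hairpins and what is particular to 1 stable line cannot be told apart, and p-values measure only the spread between these arrays.

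Erythropoietin binds its receptor on erythroid progenitors and activates the kinase JAK2, which phosphorylates STAT5. STAT5 then moves to the nucleus and binds short inverted repeats in DNA, and among the genes it switches on are its own inhibitors. CIS, the product of Cish, occupies receptor phosphotyrosines, and SOCS1 and SOCS3 block JAK kinases and mark partners for degradation, so these transcripts are widely used as a readout of recent cytokine signalling. The PIM kinases are serine/threonine kinases without a regulatory domain, so that their activity follows their abundance, and they favour survival and growth of blood cells.

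A STAT5 dimer recognises the letters TTCNNNGAA, a motif that is its own reverse complement and so reads the same on both strands. It was searched in the RefSeq promoter windows of GRCm38.p6, which run from 250 bases before to 50 bases after a transcript start. Windows were found for 8 of the 10 genes, 10 windows in all. The motif occurred in those of Cish, Socs3 and Bcl6, 3 of 8 genes, where 8.3% of all 32851 windows and 9.55% of 27025 genes held it. The Cish window is printed up to its second match because 2 matches, in capitals, follow each other at the start itself, from positions 1 and 12 counted from the first transcribed base. It covers chr9:107296409-107296678 on the plus strand.
Cish: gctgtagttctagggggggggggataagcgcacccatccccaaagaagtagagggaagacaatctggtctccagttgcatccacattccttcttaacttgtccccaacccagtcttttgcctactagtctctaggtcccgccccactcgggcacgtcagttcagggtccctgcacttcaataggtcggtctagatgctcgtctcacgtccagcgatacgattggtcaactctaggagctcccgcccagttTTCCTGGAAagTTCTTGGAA
For Socs3 and Bcl6 the matches are printed, in capitals, with 10 bases on either side, since these genes differ in whether they could be tested on the array. The Socs3 match begins at position -154 from a start, at chr11:117969502-117969530, minus strand. The Bcl6 matches begin at -168, -122 and -88 from one start, at chr16:23981433-23981461, chr16:23981387-23981415 and chr16:23981353-23981381, and at -118 from another, at chr16:23988952-23988980, all on the minus strand.
Socs3: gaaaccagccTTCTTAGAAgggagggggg
Bcl6 at -168: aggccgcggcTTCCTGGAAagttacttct
Bcl6 at -122: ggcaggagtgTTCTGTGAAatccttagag
Bcl6 at -88: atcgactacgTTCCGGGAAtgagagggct
Bcl6 at -118 of the other start: agcaaattagTTCTCAGAAttccagaggc
A match in such a window describes the letters present and is not a measurement of binding. Socs2 and Osm are named without a window.

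The arrays were even, with medians between 1.84 and 1.92 on the log2 scale and pairwise correlations between 0.983 and 0.997 over all probe sets. Of 8 erythroid marker genes on the array, 7 averaged above log2 4, led by Tfrc at 10.1, Klf1 at 9.39 and Gata1 at 8.23. Their summed log2 level per array was 49.2 to 55.85 in sh14, 53.1 to 58.82 in sh133 and 52.46 to 58.93 in scr. Some differed by line, with Alas2 at 4.36 in sh14, 6.47 in sh133 and 5.43 in scr. Gata1 was closer, at 8.12, 8.33 and 8.23. The probe set of Hba-a1, an alpha globin gene, averaged 0.97. The targeted gene Plcg1 averaged 4.15 ± 0.20 in sh14, 4.41 ± 0.08 in sh133 and 4.53 ± 0.19 in scr (log2 signal, SD, n = 4 each), and the test did not call it (hairpins minus scr -0.24 ± 0.17 SE, limma adjusted p = 0.592). Dates in the array titles, 2 in number and of unstated meaning, were taken as array runs. The 4 arrays of sh14 and those of sh133 at 6 and 12 h made up run 1, and the 4 arrays of scr with those of sh133 at 1 and 22 h made up run 2. A difference between lines is therefore computed with a run term in the model, and the term itself passed the test in 0 of 12673 genes by limma, with 694 at an unadjusted p under 0.05.

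Values below are log2 probe set signals of the brightest probe set of each gene, and a difference of 1 is a 2-fold change. They are comparable between arrays for 1 gene but not between genes. In these bulk samples fewer cells of a type and less RNA per cell cannot be told apart. Comparisons of times pool the 3 lines, and 6, 12 and 22 h are each set against the same 3 arrays of 1 h. The test is limma's moderated test with Benjamini-Hochberg adjustment over the 12673 genes, and a gene was called at an adjusted p under 0.05.

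Cish, Socs1, Socs3 and Osm were called lower at 6 h than at 1 h, 4 of the 9 tested members, where 4.86% of all genes were called and 1.93% were called lower. At 12 h the called members were Cish, Socs1 and Socs3, where 7.06% of all genes were called and 2.75% were called lower. At 22 h they were Cish, Socs1 and Osm, where 18.1% of all genes were called and 9.34% were called lower. No member was called higher at any of the 3 times. The median difference over the 9 members was -0.41 at 6 h, -0.38 at 12 h and -0.18 at 22 h, beside 0.03, 0.03 and 0.02 over all genes tested.

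Cish, at chr9:107296659-107302784, codes for the inhibitor CIS and gave the clearest course. At 1, 6, 12 and 22 h it measured 7.44, 5.83, 6.20 and 6.45 in sh14, 7.63, 6.07, 6.04 and 6.41 in sh133, and 8.15, 6.55, 6.35 and 6.33 in scr. The 3 arrays of 1 h lay above all 9 later arrays, a separation in the same direction that 2.82% of all genes showed. Over the 3 lines the means were 7.74 ± 0.37 at 1 h, 6.15 ± 0.36 at 6 h, 6.20 ± 0.15 at 12 h and 6.39 ± 0.06 at 22 h (SD, n = 3 each). The fitted difference was -1.56 ± 0.18 at 6 h (SE, limma adjusted p = 0.0025), which is 34.0% of the level at 1 h. At 12 h it was -1.51 ± 0.18 (limma adjusted p = 0.00147) and at 22 h -1.35 ± 0.16 (limma adjusted p = 0.000329). The 3 lines each fell between 1 and 6 h by about the same amount, with differences of -1.61 in sh14, -1.56 in sh133 and -1.61 in scr. The sh133 arrays of 1 and 6 h lie in different runs.

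**Figure D1:**
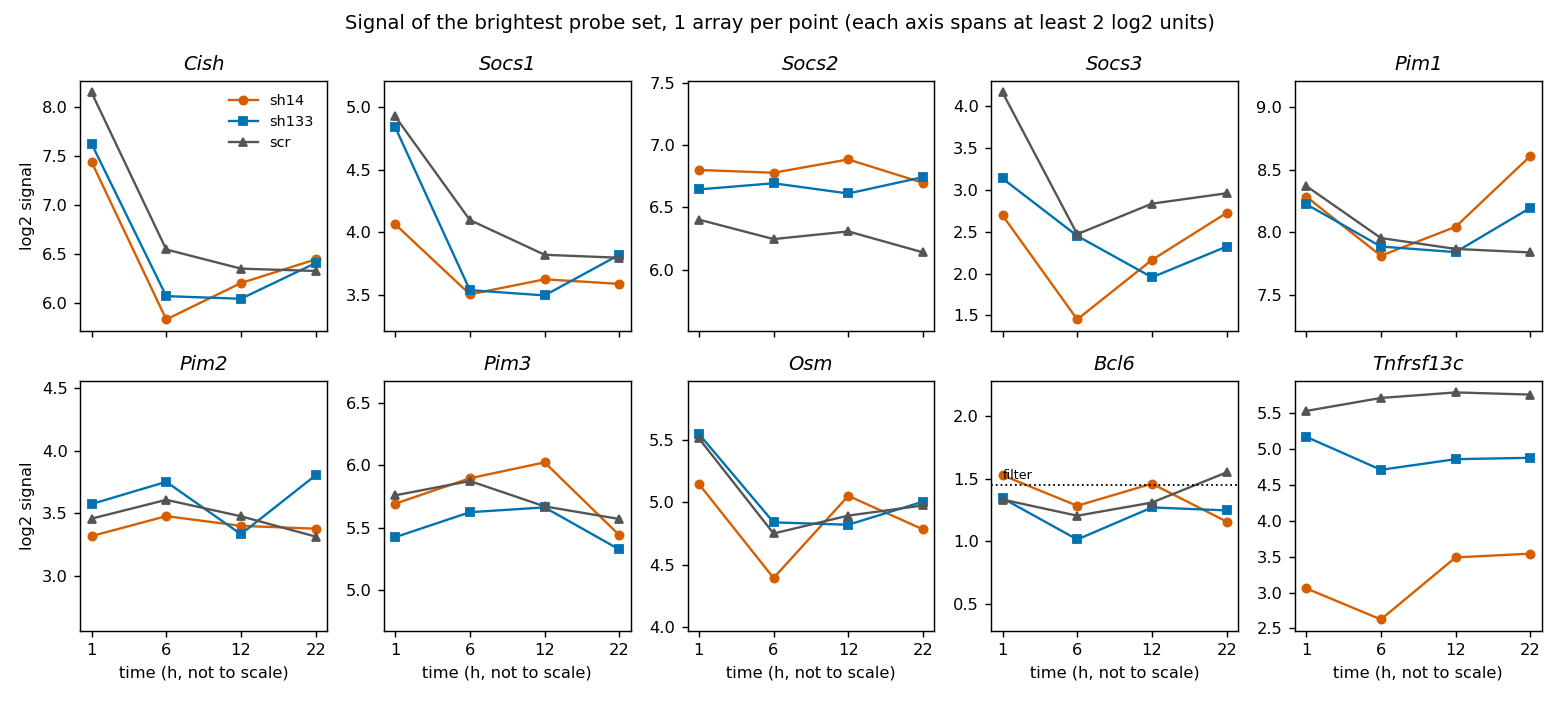
Log2 probe set signal (y axis) against hours (x axis, 1 to 22 h) for the 10 genes, with 1 array per point, a line for each of sh14, sh133 and scr, and the filter dotted in the Bcl6 panel; times are spaced evenly. Cish stands at 7.44, 7.63 and 8.15 at 1 h and between 5.83 and 6.55 on all later arrays, while the Tnfrsf13c curves run at separate heights with sh14 between 2.62 and 3.54 and scr between 5.53 and 5.79.

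At 1 h Cish measured less in both hairpin lines than in scr, with -0.71 for sh14 minus scr and -0.52 for sh133 minus scr, and at 22 h these differences were 0.12 and 0.08. No sh14 array shares a run with scr, so line and run cannot be told apart in the sh14 values. Over all times the difference between hairpins and scr was -0.26 ± 0.21 (95% interval -0.73 to 0.21, limma adjusted p = 0.660) and was not called. The course over time was tested as the difference between the slopes of the hairpins and of scr on log2 hours, and for Cish it was 0.15 ± 0.05 per doubling of hours (95% interval 0.04 to 0.27), with an unadjusted p of 0.0158 and a limma adjusted p of 0.211. None of the 9 members was called for this slope, and 1, Cish, had an unadjusted p under 0.05, where 0.0316% of all genes were called. The slope difference was above 0 in 8 of the 9 members and below 0 in Tnfrsf13c. Its median was 0.055 over the members and 0.0012 over all genes tested. All members were read on the same arrays, so these 8 are not separate results.

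Socs1, at chr16:10783808-10785536, codes for an inhibitor that binds JAK kinases directly. It measured 4.06, 3.50, 3.62 and 3.59 at 1, 6, 12 and 22 h in sh14, 4.84, 3.54, 3.50 and 3.82 in sh133, and 4.93, 4.10, 3.82 and 3.80 in scr. In each line the array of 1 h was the highest, but the 1 h array of sh14 lay below the 6 h array of scr, so the times overlapped across lines. Socs1 fell by 0.74 ± 0.15 at 6 h (limma adjusted p = 0.0231), by 0.80 ± 0.15 at 12 h (limma adjusted p = 0.0112) and by 0.88 ± 0.13 at 22 h (limma adjusted p = 0.00158) against 1 h. Between 1 and 6 h the falls differed in size, with -0.56 in sh14, -1.31 in sh133 and -0.83 in scr. Only the sh133 arrays of 1 and 6 h lie in different runs, the later one in run 1. The run term of Socs1 was -0.48 for run 1 minus run 2, so line and run cannot be told apart in the sh133 fall. The call at 6 h was lost when any 1 of 7 arrays was left out (sh14 at 6 h, sh133 at 1, 6, 12 or 22 h, scr at 1 or 6 h), with differences between -0.95 and -0.59 and limma adjusted p up to 0.125 over the 12 arrays left out in turn. At 12 h it was lost without scr at 1 h (-0.66, limma adjusted p = 0.0598) or at 12 h (-0.68, limma adjusted p = 0.106). The call at 22 h was kept without any 1 array.

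The hairpin difference of Socs1 depended on the array run. Against scr it was 0.02 ± 0.23 in sh14 (95% interval -0.50 to 0.53) and 0.00 ± 0.15 in sh133 (95% interval -0.34 to 0.34) with the run term, neither called. Without the run term the sh14 difference was -0.47 (limma adjusted p = 0.0296), and the run term of Socs1 was -0.48 ± 0.20 for run 1 minus run 2 (limma adjusted p = 0.882). At equal times sh14 minus scr was -0.86, -0.60, -0.20 and -0.21 at 1, 6, 12 and 22 h, and no sh14 array shares a run with scr, so line and run cannot be told apart on those arrays.

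Socs3, at chr11:117966079-117970336, codes for an inhibitor that binds both the receptor and JAK. Its signal was low. It measured 2.70, 1.45, 2.16 and 2.73 at 1, 6, 12 and 22 h in sh14, 3.14, 2.45, 1.96 and 2.32 in sh133, and 4.17, 2.47, 2.84 and 2.96 in scr. The scr array of 1 h was the highest of the 12, and the hairpin arrays of 1 h overlapped the later arrays of scr. Socs3 fell by 1.33 ± 0.27 at 6 h (limma adjusted p = 0.0227) and by 1.14 ± 0.27 at 12 h (limma adjusted p = 0.0318), and at 22 h the difference was -0.66 ± 0.24 (limma adjusted p = 0.0842), not called.

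Both Socs3 calls rested on the brightest probe set, whose name marks it as one that can also bind other sequences. The second probe set, which passed the filter on dim probe sets, measured 1.98, 2.32, 2.20 and 2.38 in sh14, 1.84, 1.92, 2.16 and 2.06 in sh133, and 2.69, 2.09, 2.35 and 2.20 in scr. Only its scr array of 1 h stood above the later arrays, and its differences against 1 h were -0.11 ± 0.19 at 6 h and 0.01 ± 0.19 at 12 h, neither called, where 3.97% and 6.02% of all 22549 probe sets tested were called. The remaining probe set, below the filter, measured 1.33 in sh14, 1.59 in sh133 and 2.38 in scr at 1 h, with scr again the highest. With the mean over the probe sets of Socs3 the differences were -0.68 at 6 h and -0.63 at 12 h, neither called (limma adjusted p = 0.0956 and 0.0949). The call at 6 h was also lost without sh14 at 6 h, sh133 at 1 or 22 h, or scr at 1 or 6 h, with differences between -1.65 and -1.09 over the 12 arrays left out in turn. The call at 12 h was lost without any 1 of 8 arrays (sh14 at 12 h, any of sh133, scr at 1, 6 or 12 h), with differences between -1.46 and -0.89 and limma adjusted p up to 0.156.

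On its brightest probe set Socs3 was also below scr in both hairpin lines, at every time. At 1, 6, 12 and 22 h sh14 minus scr was -1.47, -1.02, -0.67 and -0.23, and sh133 minus scr was -1.03, -0.02, -0.88 and -0.64. The fitted difference between hairpins and scr was -1.03 ± 0.32 (95% interval -1.75 to -0.31, limma adjusted p = 0.164), and it did not pass. Without the run term it was -0.75 (limma adjusted p = 0.0150), and -0.85 for sh14 against scr (limma adjusted p = 0.0116), both called, and with run as a random block both were called as well. Within run 2, where sh133 and scr share a run at 1 and 22 h, sh133 minus scr was -0.83 ± 0.16 (limma adjusted p = 0.0406). That fit left only 1 residual degree of freedom, so its spread leans on that of other genes. The second probe set gave -0.35 ± 0.22 for hairpins minus scr, not called, where 1.17% of all probe sets were. On that probe set sh133 was below scr at each time. There sh14 was above scr at 6 h (2.32 against 2.09) and at 22 h (2.38 against 2.20), and below it at 1 and 12 h.

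Socs2, at chr10:95383903-95417321, codes for an inhibitor best known for restraining growth hormone signalling in mice, and it followed the line rather than the hour. It measured 6.80, 6.78, 6.88 and 6.70 at 1, 6, 12 and 22 h in sh14, 6.64, 6.69, 6.61 and 6.74 in sh133, and 6.40, 6.25, 6.31 and 6.14 in scr. All 8 hairpin arrays lay above all 4 scr arrays, a separation in the same direction that 2.12% of all genes showed. The means were 6.79 ± 0.08 in sh14, 6.67 ± 0.06 in sh133 and 6.27 ± 0.11 in scr (SD, n = 4 each). The fitted difference was 0.52 ± 0.13 (95% interval 0.23 to 0.81), 1.43-fold, and with a limma adjusted p of 0.0806 it missed the threshold. It was 0.60 ± 0.17 for sh14 (limma adjusted p = 0.0907) and 0.44 ± 0.11 for sh133 (limma adjusted p = 0.0511). Without the run term Socs2 was called in both lines, by 0.52 in sh14 (limma adjusted p = 0.000914) and 0.40 in sh133 (limma adjusted p = 0.00837). Between sh133 and scr in run 2 alone the difference was 0.42 (limma adjusted p = 0.280), in a fit with 1 residual degree of freedom.

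Over time Socs2 moved little, with fitted differences of -0.01 ± 0.11 at 6 h, 0.01 ± 0.11 at 12 h and -0.09 ± 0.10 at 22 h (95% interval at 22 h -0.30 to 0.13). Its second bright probe set measured 6.20, 6.00, 6.21 and 5.75 in sh14, 5.80, 5.94, 5.75 and 5.64 in sh133, and 5.45, 5.31, 5.51 and 5.30 in scr. For hairpins minus scr this probe set gave 0.49 ± 0.15, not called, where 1.17% of all probe sets were called. The remaining 4 probe sets of Socs2 averaged between 0.77 and 2.20 over the 12 arrays, and 1 of them was below the filter. Those tested among them gave 0.33 ± 0.14, 0.21 ± 0.15 and 0.05 ± 0.20 for hairpins minus scr, none called.

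**Figure D2:**
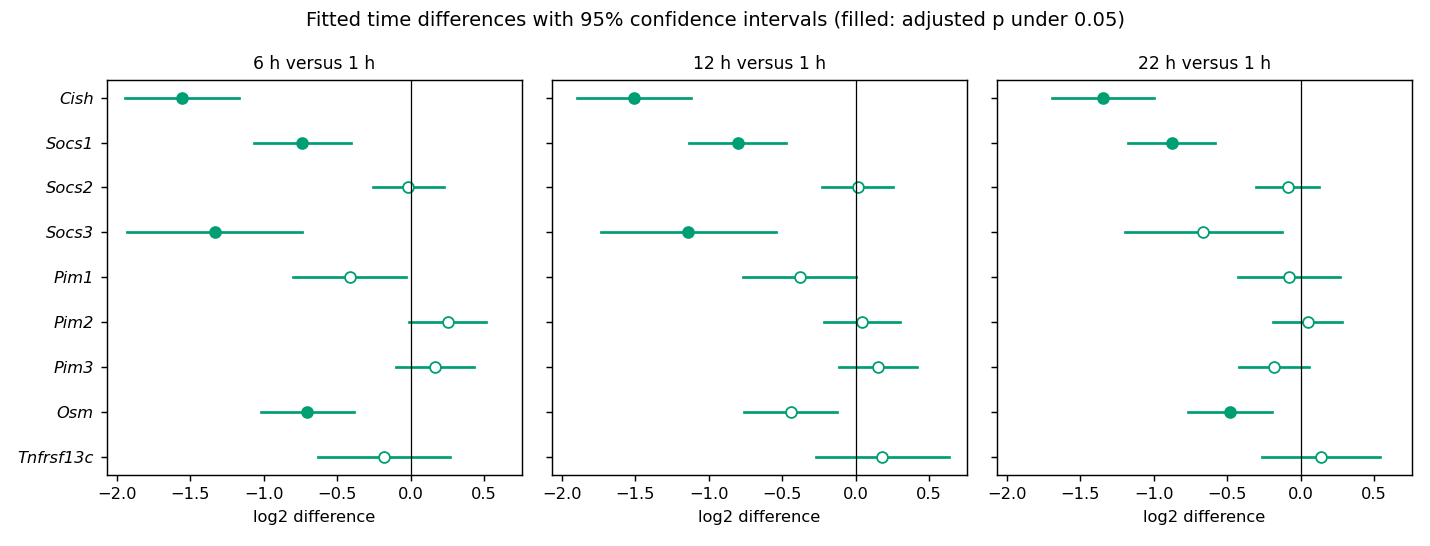
Fitted log2 difference against 1 h (x axis, bars are 95% intervals) for the 9 tested members at 6, 12 and 22 h over the 3 lines, with filled points for limma adjusted p under 0.05. Cish lies furthest below 0 at each time (-1.56, -1.51 and -1.35), Socs1, Socs3 and Osm lie below 0, and Socs2, Pim2, Pim3 and Tnfrsf13c lie within 0.26 of 0.

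On their brightest probe sets none of the 3 PIM kinase genes was called at any time. Pim1, at chr17:29490785-29496111 and the family member most often described as a STAT5 target, measured 8.29, 7.81, 8.04 and 8.61 at 1, 6, 12 and 22 h in sh14, 8.22, 7.89, 7.84 and 8.19 in sh133, and 8.37, 7.95, 7.87 and 7.84 in scr. The 6 h array was below the 1 h array in each line, by -0.47 in sh14, -0.34 in sh133 and -0.42 in scr, and the fitted difference of -0.41 ± 0.17 was not called (limma adjusted p = 0.228). Between 12 and 22 h the lines parted, with 0.57 in sh14, 0.35 in sh133 and -0.03 in scr. The sh133 arrays of 12 and 22 h lie in different runs, as do those of 1 and 6 h.

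At 22 h Pim1 was thus 0.77 above scr in sh14 and 0.36 above scr in sh133. This is 1 array per line, and sh14 and scr share no run. The slope difference over all 4 times was 0.13 ± 0.06 per doubling of hours (95% interval -0.0046 to 0.26, limma adjusted p = 0.324). The second Pim1 probe set measured 6.13, 5.63, 6.17 and 6.66 in sh14, 6.36, 5.66, 5.64 and 6.48 in sh133, and 6.49, 6.10, 6.10 and 5.71 in scr, so on this probe set both hairpin lines were highest at 22 h and scr was lowest then. Its slope difference was 0.21 ± 0.08 per doubling of hours, with a limma adjusted p of 0.279 over all probe sets, of which 0.00443% were called. Over all times hairpins minus scr was 0.10 ± 0.21 for Pim1 (95% interval -0.37 to 0.56).

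Pim2, at chrX:7878306-7883432, measured 3.32, 3.48, 3.40 and 3.38 at 1, 6, 12 and 22 h in sh14, 3.57, 3.75, 3.33 and 3.80 in sh133, and 3.46, 3.61, 3.47 and 3.31 in scr. Its whole range over 12 arrays was narrow and the lines overlapped. No comparison called Pim2, and the widest difference was 0.29 ± 0.12 for sh133 minus scr (95% interval 0.02 to 0.56, limma adjusted p = 0.246).

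Pim3, at chr15:88862194-88865726, measured 5.69, 5.90, 6.02 and 5.44 at 1, 6, 12 and 22 h in sh14, 5.43, 5.63, 5.66 and 5.33 in sh133, and 5.76, 5.87, 5.67 and 5.57 in scr. In each line the array of 22 h was the lowest, and the fitted difference at 22 h was -0.18 ± 0.11 (limma adjusted p = 0.284), not called. The name of this probe set, like that of the brightest one of Socs3, marks it as one that can also bind other sequences. The second Pim3 probe set has no such mark, was dimmer and passed where the first did not. It measured 3.26, 3.53, 3.60 and 2.66 in sh14, 3.36, 3.05, 2.87 and 3.04 in sh133, and 3.25, 3.77, 3.59 and 2.94 in scr. At 22 h its difference was -0.41 ± 0.10 (limma adjusted p = 0.0215 over all probe sets, where 16% were called), and sh14 minus sh133 was 0.60 ± 0.12 (limma adjusted p = 0.00879, where 11.8% were called). At 6 and 12 h, where sh14 and sh133 share a run, the sh14 arrays of this probe set lay above those of sh133, and at 1 and 22 h they lay below. For the brighter probe set sh14 minus sh133 was 0.24 ± 0.12 (limma adjusted p = 0.231).

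**Figure D3:**
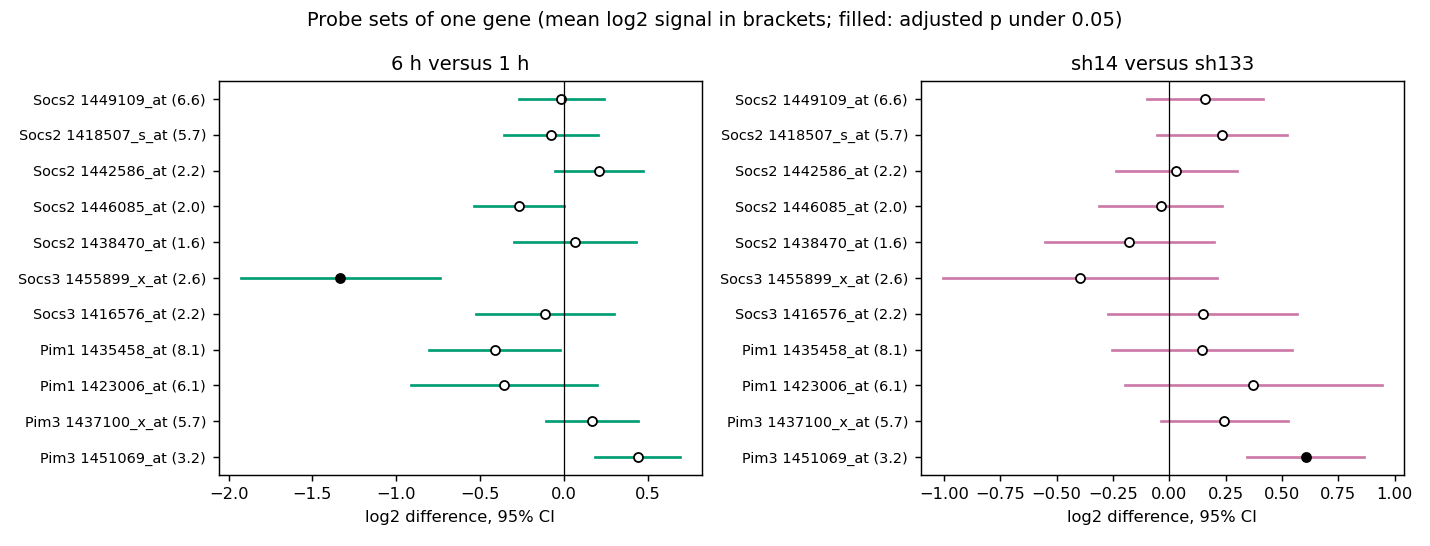
Fitted log2 difference (x axis, bars are 95% intervals) of the separate probe sets of Socs2, Socs3, Pim1 and Pim3 that passed the filter, for 6 h against 1 h and for sh14 against sh133, with filled points for limma adjusted p under 0.05. The brighter Socs3 probe set lies at -1.33 at 6 h and the dimmer one at -0.11, and for sh14 minus sh133 the dimmer Pim3 probe set lies at 0.60 and the brighter one at 0.24.

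Osm, at chr11:4236785-4241026, codes for oncostatin M, a secreted cytokine of the interleukin-6 family whose gene is a known STAT5 target in mouse blood cells. It measured 5.15, 4.40, 5.05 and 4.78 at 1, 6, 12 and 22 h in sh14, 5.55, 4.84, 4.82 and 5.01 in sh133, and 5.51, 4.75, 4.89 and 4.98 in scr. As for Cish, the 3 arrays of 1 h lay above all 9 later arrays. Between 1 and 6 h the lines moved alike, by -0.75 in sh14, -0.71 in sh133 and -0.76 in scr, though the sh133 arrays of these times lie in different runs. Osm fell by 0.70 ± 0.14 at 6 h (limma adjusted p = 0.0233) and by 0.48 ± 0.13 at 22 h (limma adjusted p = 0.0268), and at 12 h the difference was -0.44 ± 0.14 (limma adjusted p = 0.0980), not called. The call at 6 h was lost without sh14 at 6 h, sh133 at 1 or 22 h, or scr at 1 or 6 h (differences of -0.80 to -0.56 over the 12 arrays left out in turn, limma adjusted p up to 0.142). The call at 22 h was lost without sh14 at 22 h, or sh133 or scr at 1 or 22 h (differences of -0.56 to -0.43, limma adjusted p up to 0.133).

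Hairpins and scr did not differ past the threshold in Osm, with 0.00 ± 0.17 (95% interval -0.38 to 0.39). The oncostatin M receptor genes were near background: Osmr averaged 1.23 in sh14, 0.88 in sh133 and 0.93 in scr, below the filter at log2 1.45. Lifr, which codes for a related receptor of the same cytokine family, fell by 1.44 at 22 h and was called, where 9.34% of all genes were called lower.

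Bcl6, at chr16:23965050-23988866, codes for a transcriptional repressor that STAT5 is known to repress in mouse B cells. Its brighter probe set measured 1.53, 1.28, 1.46 and 1.16 at 1, 6, 12 and 22 h in sh14, 1.35, 1.01, 1.27 and 1.25 in sh133, and 1.33, 1.20, 1.31 and 1.55 in scr. These values sit at the 35.5th percentile of probe set means, under the filter at the 40th, and the other probe set sat at the 21.9th. Bcl6 was therefore not tested, and no order of lines or times can be read from values this close to background.

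Tnfrsf13c, at chr15:82221742-82224380, codes for the BAFF receptor, which carries survival signals in B cells, and its difference for hairpins and for sh14 against scr, and for sh14 against sh133, was the largest among the 9 tested members. For sh133 against scr that of Socs3 was larger. It measured 3.06, 2.62, 3.49 and 3.54 at 1, 6, 12 and 22 h in sh14, 5.17, 4.71, 4.86 and 4.88 in sh133, and 5.53, 5.71, 5.79 and 5.76 in scr. The 3 lines did not overlap, and all 8 hairpin arrays lay below all 4 scr arrays, a separation in the same direction that 1.68% of all genes showed. The means were 3.18 ± 0.43 in sh14, 4.90 ± 0.19 in sh133 and 5.70 ± 0.12 in scr (SD, n = 4 each).

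Tnfrsf13c was the 1 member called between hairpins and scr, where 2.18% of all genes were called and 1.04% were called lower, and 3 members had an unadjusted p under 0.05. The difference was -1.53 ± 0.25 (95% interval -2.08 to -0.98, limma adjusted p = 0.0138), or 34.7% of the level in scr. It lost the call without sh133 at 6 h (-1.45, limma adjusted p = 0.0550) or at 22 h (-1.20, limma adjusted p = 0.107). For sh14 against scr it was -2.35 ± 0.32 (limma adjusted p = 0.00424), again the 1 member called, where 3.06% of all genes were called.

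For sh133 against scr the Tnfrsf13c difference was -0.71 ± 0.21 (95% interval -1.17 to -0.24, limma adjusted p = 0.0905) and not called. No member was called in that comparison by limma, with 4 at an unadjusted p under 0.05, while 4.91% of all genes were called. At 1 and 22 h, where sh133 and scr share a run, the difference was -0.36 and -0.88. The hairpin lines differed from each other by -1.64 ± 0.21 for sh14 minus sh133 (95% interval -2.10 to -1.18, limma adjusted p = 0.00087), the 1 member called there, where 14.6% of all genes were called. At 6 and 12 h, where these lines share a run, sh14 minus sh133 was -2.09 and -1.37. Within run 1 alone the fit gave -1.73 (limma adjusted p = 0.00511), with only 1 residual degree of freedom.

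**Figure D4:**
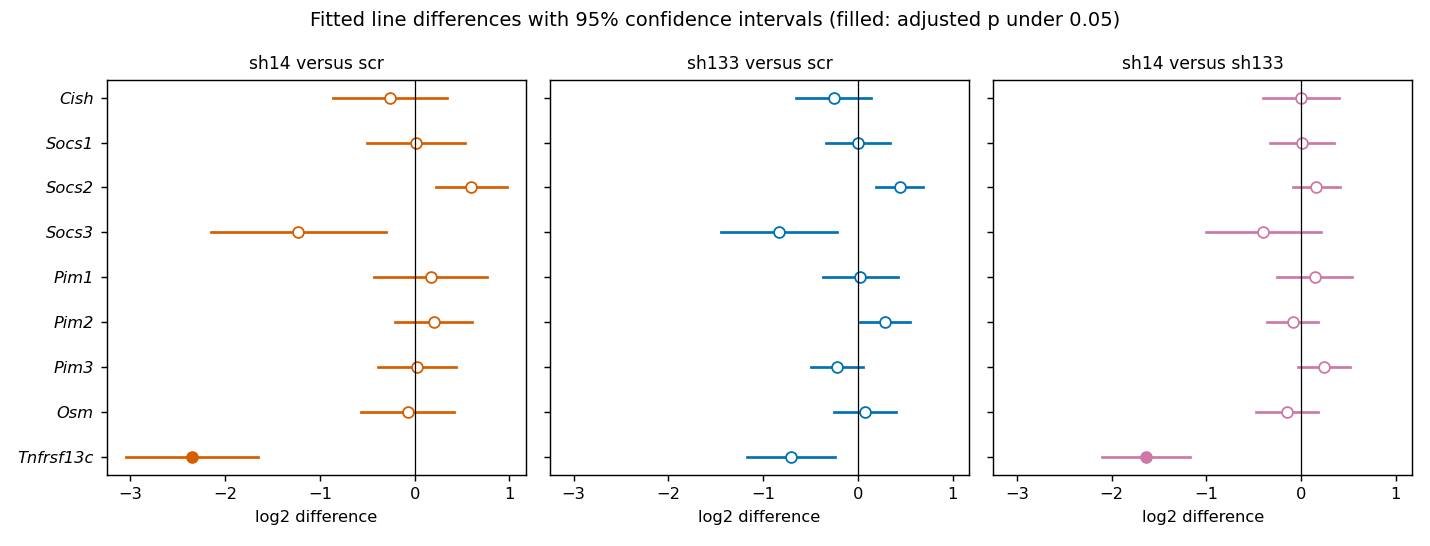
Fitted log2 difference (x axis, bars are 95% intervals) for the 9 tested members, for sh14 against scr, sh133 against scr and sh14 against sh133, with filled points for limma adjusted p under 0.05. Tnfrsf13c stands at -2.35, -0.71 and -1.64 in these comparisons, Socs2 at 0.60 and 0.44 against scr, and Socs3 at -1.23 and -0.83 against scr.

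Time had little bearing on Tnfrsf13c, with fitted differences of -0.18 ± 0.20 at 6 h, 0.18 ± 0.20 at 12 h and 0.14 ± 0.18 at 22 h, none called. Tnfrsf13b, which codes for TACI, another receptor of the same ligand family, measured 3.07, 3.38, 2.83 and 3.33 at 1, 6, 12 and 22 h in sh14, 6.02, 5.07, 4.79 and 4.90 in sh133, and 6.10, 5.58, 5.22 and 4.80 in scr. For Tnfrsf13b sh14 minus scr was -1.81 ± 0.41 (limma adjusted p = 0.0418), where 3.06% of all genes were called. Its sh14 minus sh133 difference was -1.81 ± 0.27 (limma adjusted p = 0.00197), where 14.6% of all genes were called. Of 8 tested partners of oncostatin M, BCL6 and the BAFF receptor, it was the 1 called in each of these comparisons. The ligand gene Tnfsf13b was below the filter.

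B cell markers were few and low in all lines: of 8 on the array, 6 passed the filter and 1, Ighm at 4.19, averaged above log2 4, while Cd79b averaged 0.89 and Ebf1 1.10. Their summed log2 level per array was 14.91 to 16.09 in sh14, 14.53 to 16.22 in sh133 and 15.69 to 17.37 in scr. Blnk averaged 1.40 in sh14, 1.20 in sh133 and 2.70 in scr. Other markers did not follow it, with Cd79a at 1.66 in sh14, 1.47 in sh133 and 1.39 in scr, and Ighm at 4.19 in sh14, 4.25 in sh133 and 4.11 in scr. Log2 levels of mast cell and basophil markers summed to 25.4 to 29.81 in sh14, 18.38 to 23.91 in sh133 and 19.65 to 24.79 in scr. Members of that list differed in direction. Fcer1a averaged 4.13 in sh14 and 1.20 in scr, but Hdc averaged 7.21 in sh14 and 7.91 in scr, and Cma1 1.58 and 1.95. Those of megakaryocyte markers summed to 19.2 to 22.9 in sh14, 18.08 to 22.05 in sh133 and 15.98 to 17.6 in scr. The part of these markers in the Tnfrsf13c difference was not tested.

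The 10 tested genes nearest Tnfrsf13c on chromosome 15, 5 on either side, spanned 0.395 Mb. Of these, 0 were called by limma for hairpins, sh14 or sh133 against scr, where 2.18%, 3.06% and 4.91% of all genes were called. With 10 genes, 0 called is near these shares. The medians of the 10 differences were -0.07, -0.12 and -0.11. Of the 10 nearest Socs2 on chromosome 10, over 2.323 Mb, Tmcc3 was called lower in all 3 comparisons, with -2.17 for hairpins against scr. Ube2n was called higher for sh133 against scr.

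Of 20 genes of the erythropoietin receptor, JAK2 and STAT5 core, 18 were tested, and for hairpins against scr 1 was called higher and 0 lower, where 2.18% of all genes were called. That gene was Grb2, an adaptor that links receptors to RAS, at 0.63 ± 0.13 (limma adjusted p = 0.0406). Epor differed by -0.13 ± 0.15, Jak2 by -0.11 ± 0.15, Stat5a by 0.17 ± 0.12 and Stat5b by -0.09 ± 0.18, none called. For sh133 against scr 2 of the 18 were called higher (Ptpn11 by 0.49 and Grb2 by 0.46) and 1 lower (Gab1 at -0.83), where 4.91% of all genes were called. For sh14 against sh133 5 were called higher and 1 lower, where 14.6% of all genes were called, and Stat5a was among the higher, by 0.55 ± 0.10 (limma adjusted p = 0.00534).

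Over time, 2 of the 18 core genes were called higher and 1 lower at 6 h, where 4.86% of all genes were called. At 22 h 2 were called higher and 7 lower against 1 h, where 18.1% of all genes were called. Epor, the erythropoietin receptor itself, was higher by 0.51 ± 0.12 at 6 h (limma adjusted p = 0.0474) and by 0.60 ± 0.11 at 22 h (limma adjusted p = 0.00503). Stat5a fell by 0.51 ± 0.09 (limma adjusted p = 0.00288) and Stat5b by 0.45 ± 0.13 (limma adjusted p = 0.0445) at 22 h. Sh2b3, which codes for LNK, another inhibitor of JAK2, fell by 1.03 ± 0.12 at 22 h (limma adjusted p = 0.000407). The core median at 22 h was -0.20, beside 0.02 over all genes tested.

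Other genes that respond to erythropoietin or STAT5 were mixed. Of 20 tested, 3 were called higher and 4 lower at 6 h, beside 4.86% of all genes, and 5 higher and 8 lower at 22 h, beside 18.1% of all genes. Egr1, an immediate early transcription factor, fell by 5.53 ± 0.35 at 6 h (limma adjusted p = 0.000225), and its arrays of 1 h measured 8.11 in sh14, 8.79 in sh133 and 9.49 in scr. Mcl1, an inhibitor of apoptosis, fell by 0.95 at 6 h, Id2 fell by 1.38 and Cdkn1a fell by 1.52. The transferrin receptor gene Tfrc was higher at 22 h by 0.95 and the cyclin gene Ccnd3 by 0.85. For hairpins against scr 0 of the 20 were called by limma, beside 2.18% of all genes, so 0 is near that share.

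Of 12 tested genes for the remaining SOCS and PIAS proteins and the ligase that SOCS proteins recruit, 1 was called higher and 0 lower at 6 h (Socs7, by 0.50), where 4.86% of all genes were called. At 22 h 2 were called higher and 3 lower, where 18.1% of all genes were called, among them Socs4 at 0.37 and Socs6 at -0.82. For hairpins against scr 0 of the 12 were called, beside 2.18% of all genes. Of 14 genes whose proteins are described as PIM substrates, 0 were called higher and 1 lower at 6 h, beside 4.86% of all genes. For hairpins against scr 1 of them, Map3k5, was called higher by 0.88 ± 0.16 (limma adjusted p = 0.0245), beside 2.18% of all genes. Cxcr4, a chemokine receptor gene of that list, was higher by 2.05 ± 0.40 in sh14 against scr (limma adjusted p = 0.0256). Of 16 partners of oncostatin M, BCL6 and the BAFF receptor, 8 were tested. For hairpins against scr 0 of the 8 were called, beside 2.18% of all genes. At 22 h 0 were called higher and 3 lower (Lifr, Nfkb2 and Relb), where 18.1% of all genes were called.

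Across the 12 arrays the members fell into patterns, given here as a description, since arrays of 1 line or 1 time share cells, hour and run. Cish correlated with Socs1 at r = 0.93, with Osm at 0.87 and with Socs3 at 0.83, and after removing each line's mean these were 0.95, 0.89 and 0.87. Pim1 and Socs3 reached 0.83 after that step. Socs2 and Tnfrsf13c correlated at -0.82, and at -0.17 once each line's mean was removed. The tested genes most like each member over the 12 arrays were Klf9 (r = 0.964) and Jarid2 (0.949) for Cish, Zpr1 (0.962) and Itga9 (0.954) for Socs1, and Pea15a (0.946) and Fig4 (0.906) for Socs3. They were Adnp2 (0.935) and Nktr (0.913) for Osm, Tmem229b (0.960) and Galk2 (0.949) for Socs2, and Ccp110 (0.965) and Lgr4 (0.961) for Tnfrsf13c. For the PIM genes they were Qars (0.926) and Inpp4b (0.902) for Pim1, Plekha1 (0.899) and Btaf1 (0.895) for Pim3, and Lix1l (0.780) and Ap3m2 (0.763) for Pim2.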

How the data were processed

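The values are the log2 probe set signals that the authors deposited for 12 Affymetrix mouse arrays. Per the submitters' processing notes they come from RMA, of unstated version. RMA equalises array distributions, so changes in total RNA are not visible. The amplification and labelling kits are those in the labels' protocols.

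Of 45101 probe sets, the platform annotation gave 1 gene for 34958, several for 932 and none for 9211, and 34754 were matched by Entrez identifier to RefSeq (GRCm38.p6). The brightest probe set stood for a gene, and genes whose probe set mean lay below the 40th percentile (log2 1.45) were left out. Differences were fitted with limma 3.58.1 in R 4.3.3, in a model with line, time as a factor and array run, on all 12 arrays (5 residual degrees of freedom, 4 for the slope difference), with adjusted p-values over 12673 genes at a threshold of 0.05, or over 22549 probe sets where said. The median standard error was 0.15 for hairpins against scr and 0.11 for 22 h against 1 h. The number of arrays limits the precision. Fits within a single run used 4 arrays and left 1 residual degree of freedom. Replicate numbers follow deposit order and pair nothing. The fit was tested on simulated data. Figures were drawn with Python 3.11.15.

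The members and gene lists were chosen with earlier results of these data known. Named genes are the 10 members, core pathway genes on which a result turns, up to 4 called genes of largest change per list and comparison, and the 2 genes most correlated with each tested member. Tmcc3, Ube2n, Osmr, Tnfsf13b, Tfrc, Ccnd3 and the single markers named were picked with their values in view. Alternatives were: no run term, run as a random block, other filters, the mean over probe sets, renormalization, linear log2 hours, single runs, and each array left out.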

Additional observations from a re-analysis of the deposited data

Results flagged for a closer look

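Within the 4 scr arrays the Cish signal at 1 h was 8.15, and its gap to the next array made up 0.88 of the range of the group, above Dixon's 95% critical value. Such a gap flags about 1 group in 20 by chance, and here the 4 arrays differ in time.

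Tnfrsf13c differed between the hairpin lines, with -1.64 on the log2 scale for sh14 minus sh133 in limma's fit (adjusted p = 0.00087), so the hairpins' differences from scr are not of 1 size. The 4 sh14 arrays lay below the 4 sh133 arrays.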

How the results depend on the processing

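The number of members called between hairpins and scr was 1, and it was 3 without the run term, 3 with run as a random block, 2 with linear log2 hours, and 0 to 1 with each array left out. For sh14 against scr it was 1, and 4 without the run term or with run as a random block. For sh133 against scr it was 0, then 2 without the run term, 2 with the random block, 1 with the filter at the 60th percentile, after quantile normalization, with linear log2 hours or within run 2 alone, and 0 to 1 with each array left out. For sh14 against sh133 it was 1, and 2 with the mean over probe sets, which added Pim3. With each array left out, the number called was 1 to 4 at 6 h and 1 to 3 at 12 h. One direction turned past the threshold: Socs1 in sh14 against scr was 0.02, and -0.47 both without the run term (limma adjusted p = 0.0296) and with the random block (limma adjusted p = 0.0273). Cish at 6, 12 and 22 h, Socs1 at 22 h, and Tnfrsf13c in sh14 against scr and against sh133 kept their calls under every alternative run. Of 59 uncalled differences, 30 changed sign under some alternative and stayed uncalled. No paired analysis was possible because the replicate numbers follow deposit order and pair no arrays. Matching of the lines by hour is part of the model itself, through the time term. Dim probe sets limit Bcl6 and Socs3, and with 1 array per line and time no value at a single time has a replicate.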
